A study of Prunus persica with 16 samples.

Results

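Untreated buds of the peach cultivar TropicBeauty, taken 7 days after other trees of the orchard had been sprayed, were compared with untreated buds taken 4 days earlier, at 3 days. The comparison rests on 8 mRNA sequencing libraries, 4 per day, out of 16 in the series. Genes with 1 FPKM or more in at least 4 of these 8 libraries were tested, which kept 14003 of 26873 gene identifiers (52.1%) and left out 12870. FPKM (fragments mapped to a gene, scaled to its length and to all mapped fragments of the library) is a relative level within a library.

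The trees were 5 years old, grafted on Floridaguard rootstock, and grew in an orchard in Florida. Control buds at 7 days and at 3 days came from 4 trees that got no hydrogen cyanamide, and no surfactant spray is mentioned for them. The other 8 libraries came from 4 trees sprayed with 1% (v/v) hydrogen cyanamide (HC) and 0.15% (v/v) surfactant, with buds also taken at 7 and 3 days. All trees had met 11 of the 150 chilling hours that the cultivar needs when the spray was applied. The labels do not say whether 1 replicate number stands for 1 tree on both days. Each day is 1 sampling occasion, so the time passed and anything else that set the 2 occasions apart cannot be told apart.

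Dormancy lets the buds of temperate fruit trees pass the winter with growth arrested. Exposure to chilling releases the inner block on growth, known as endodormancy, and in peach a cluster of dormancy-associated MADS-box transcription factors is tied to this state. Cold acclimation, carbohydrate turnover, hormone signalling and the slow growth of flower parts inside the bud all go on in dormant buds, so transcript levels can move with no visible change. The matrix gives identifiers with no gene name beside them, and a search among 26412 RefSeq genes found 0 of the 26873. Genes are therefore given by identifier with no name or role, lists of genes by function were not tested, and the tissue label was not checked against marker genes.

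Sequencing depth, estimated from the steps in low FPKM values, was 0.555 to 9.03 M reads (M for mega) in genes per library at 7 days (median 2.82 M), and 1.42 to 13.3 M reads at 3 days (median 7.24 M). The mean depth was 3.81 ± 3.70 M reads at 7 days and 7.30 ± 5.69 M reads at 3 days (SD, n = 4 each; exact permutation test, two-sided, p = 0.29, adjusted over 3 library measures 0.86). Genes above 0 numbered 10356 to 15834 at 7 days and 8667 to 15930 at 3 days (exact permutation p = 0.91, adjusted 0.97). The 100 most abundant genes of a library held 36.5 ± 2.01% of its summed FPKM at 7 days and 36.5 ± 0.94% at 3 days (SD, n = 4 each; exact permutation p = 0.97, adjusted 0.97). The smallest p that 4 against 4 libraries allow is 0.029. A pair of libraries stood apart, replicate 1 at 7 days with the lowest depth and replicate 2 at 3 days with the fewest genes. Brought to equal reads (0.555 M), replicate 2 at 3 days had an expected 8157 genes above 0, against 13719 to 14649 in the other 3 at 3 days. Replicate 1 at 7 days had an expected 10339, against 12820 to 14690 in the other 3 at 7 days, so both stayed lowest of their day.

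Over the 4 days without treatment, 1297 genes changed, 9.26% of those tested, with 597 higher (4.26%) and 700 lower (5%) at 7 days (limma, Benjamini-Hochberg adjusted p under 0.05). The genes that rose had log2 fold changes with quartiles of 1.38 and 3.13 (median 2.38), on the log2(FPKM + 1) scale. For those that fell, the quartiles were -2.78 and -1.16 (median -1.80). Changes of 4 or more on this scale were seen in 63 of the genes that rose and 52 of those that fell. In these bulk samples, fewer cells of a type and less RNA per cell cannot be told apart. The median log2 fold change over all tested genes was -0.03. It was 0.09 with median-of-ratios scaling between libraries, under which 725 genes were higher and 536 lower (57.5% of calls higher, against 46.0%). With voom on estimated reads, 629 were higher and 548 lower. Without replicate 3 at 3 days the counts were 589 and 584, and without replicate 4 at 3 days 577 and 524. Leaving out any other single control library kept more genes lower. Which direction held more genes thus depended on the scaling, the method and single libraries. A fit of the 8 control libraries alone called 578 genes, 294 higher and 284 lower. Over the tested genes, the median SD of log2(FPKM + 1) among the 4 libraries was 0.90 in control buds at 7 days and 1.07 at 3 days, and 0.63 in HC buds at 7 days and 0.56 at 3 days. The fit of all 16 libraries shares 1 spread per gene, so the less variable HC libraries entered the test of the control buds.

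**Figure D1:**
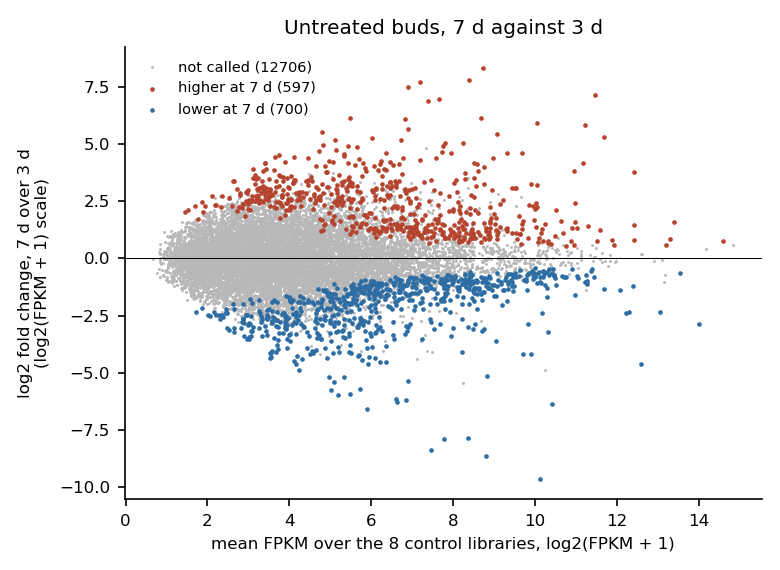
Change between days against level for the 14003 genes tested in untreated buds. The x axis is the mean FPKM over the 8 control libraries as log2(FPKM + 1), and the y axis is the log2 fold change of 7 over 3 days. Each dot is a gene. The 597 genes higher at 7 days (red) have log2 fold changes of 0.55 to 8.37, and the 700 lower (blue) of -9.65 to -0.42.

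The libraries of the days did not overlap for 553 of the 597 genes that rose and for 619 of the 700 that fell. Over all tested genes, 13.9% did not overlap, 6.54% with 7 days higher and 7.36% with 7 days lower. Leaving out each of the 8 control libraries in turn, 364 of the genes that rose and 409 of those that fell were called in the same direction in all 8 fits. Without both libraries that stood apart, 1200 genes were called, 553 higher and 647 lower. Of these, 426 were among the 597 and 449 among the 700.

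Changed genes had higher levels than most. The genes that rose had a median level of 130.0 FPKM at 7 days and 27.7 FPKM at 3 days, and those that fell had 31.5 FPKM at 7 days and 106.8 FPKM at 3 days. Over all tested genes the medians were 12.8 FPKM at 7 days and 13.7 FPKM at 3 days. Of the 645 genes with a mean of 300 FPKM or more, 134 rose and 163 fell, together 46.0%. Of the 4233 genes between 3 and 10 FPKM, 63 rose and 57 fell, together 2.83%. The precision also differed with the level, and from 3 FPKM upward it rose with it. Its measure was the median distance from the estimate to either end of the 95% interval of the log2 fold change. This distance was 1.53 under 3 FPKM, 1.76 between 3 and 10 FPKM and 1.62 between 10 and 30 FPKM. It was 0.98 between 30 and 100 FPKM, 0.65 between 100 and 300 FPKM and 0.45 at 300 FPKM or more. The part of precision in the share called was not tested. Behind the called genes stood a median of 2949 estimated reads over the 8 libraries for those that rose and 4127 for those that fell, against 945 over all tested genes. None of the 596 and 698 called genes with such an estimate had fewer than 20 reads.

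**Figure D2:**
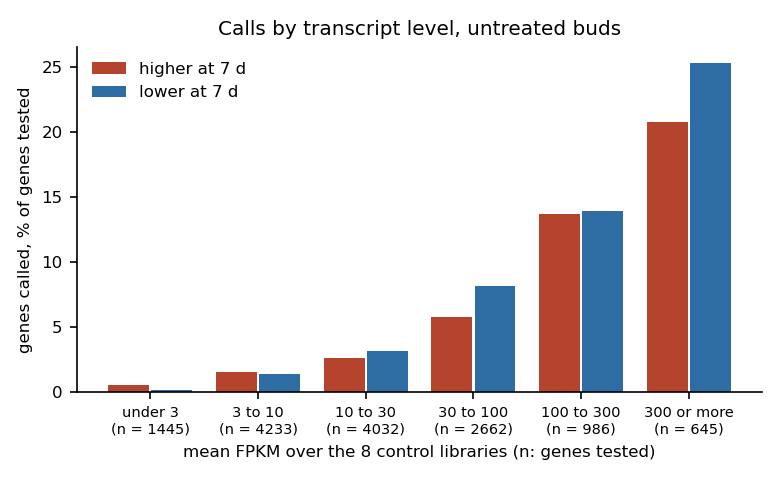
Share of tested genes called higher (red) or lower (blue) at 7 days, in percent (y axis, from 0), by mean FPKM over the 8 control libraries (x axis, with the number of genes tested). The share called rises with the level, from 0.48% higher and 0.14% lower under 3 FPKM to 20.8% higher and 25.3% lower at 300 FPKM or more.

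The called genes made up a sizeable share of the transcript pool. The 597 genes that rose held 29.4%, 25.1%, 29.1% and 26.4% of the summed FPKM of replicates 1 to 4 at 7 days, and 10.6%, 8.56%, 10.6% and 9.85% at 3 days. The 700 genes that fell held 9.96%, 12.2%, 10.2% and 11.4% at 7 days, and 27.6%, 30.1%, 27.7% and 27.7% at 3 days. These genes were picked by these libraries, so the separation is a description of its size. The 8 HC libraries did not set the direction of the calls, though they shared in the estimate of the spread. In them, the genes that rose in control buds held 22.2% to 25.8% at 7 days and 10.4% to 11.7% at 3 days, and the genes that fell held 12.3% to 14.1% at 7 days and 27.1% to 28.3% at 3 days. In both sets the HC libraries of the 2 days did not overlap and lay on the same sides as the control libraries.

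**Figure D3:**
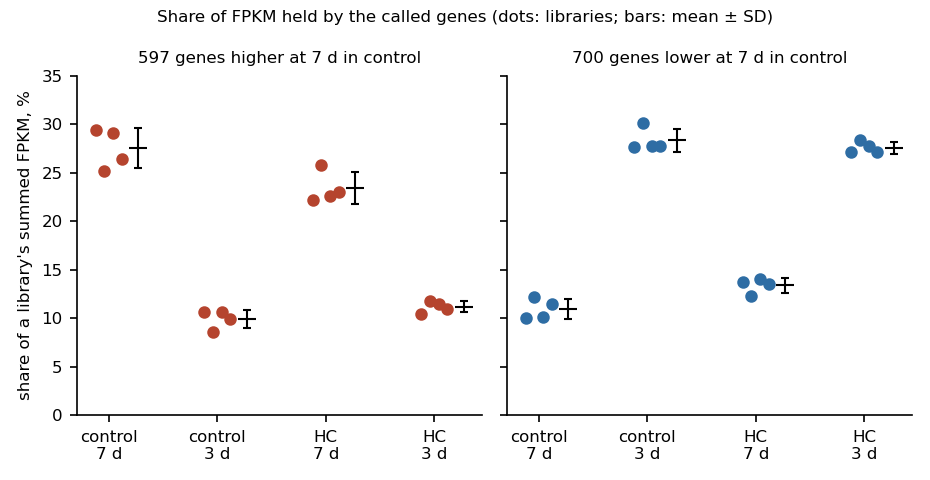
Share of each library's summed FPKM, in percent (y axis, from 0), held by the genes called higher (left, red) and lower (right, blue) at 7 days in control buds. Dots are libraries and bars are means ± SD of the 4 libraries of a group. At 7 days all 8 libraries hold 22.2% to 29.4% in the left set, against 8.56% to 11.7% at 3 days.

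The ranking at the top of the pool differed between the days. Of the 100 genes with the highest mean FPKM at 7 days, 62 were also among the 100 highest at 3 days. Pairs of single libraries from different days shared 52 to 66 of their 100 highest genes (median 62, 16 pairs). Pairs from 1 day shared 78 to 85 at 7 days (median 82) and 75 to 90 at 3 days (median 83, 6 pairs each). The other 38 on each day were among the 100 highest on that day alone.

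The 2 genes with the widest gap between the days among those that rose were Prupe.1G586200 and Prupe.2G301300. They were chosen for this gap, so that their libraries do not overlap follows from the choice. Both passed the filter through the 4 libraries at 7 days alone, which favours a call. Prupe.1G586200 had 335, 198, 169 and 244 FPKM in replicates 1 to 4 at 7 days, and 0.91, 0, 0.30 and 0 FPKM at 3 days. At 3 days, 2 libraries listed the gene at 0. Its log2 fold change was 7.52 ± 0.66 (SE, limma adjusted p = 6.1e-07), and it was called in all 21 alternative fits. Behind these values stood an estimated 1051 reads in the 4 libraries at 7 days and 1.995 at 3 days. Levels in HC buds were 63.9 to 247 FPKM at 7 days, against 0 to 5.70 FPKM at 3 days, a change of 5.62 ± 0.66 (limma adjusted p = 2.2e-05).

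Prupe.2G301300 had 494, 158, 248 and 263 FPKM at 7 days, and 0.22, 0.86, 0.07 and 0 FPKM at 3 days. At 3 days, 1 library listed it at 0. The log2 fold change was 7.75 ± 0.54 (SE, limma adjusted p = 5.7e-08), called in all 21 alternative fits, from an estimated 9207 reads at 7 days and 6.81 at 3 days. Its HC range was 96.6 to 276 FPKM at 7 days, against 0 to 2.54 FPKM at 3 days (5.96 ± 0.54, limma adjusted p = 1.4e-06). For neither gene did the change differ detectably between control and HC buds (difference 1.90 ± 0.93 for Prupe.1G586200, limma adjusted p = 0.52, and 1.79 ± 0.76 for Prupe.2G301300, adjusted p = 0.43).

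The genes with the widest gap among those that fell were Prupe.5G090700 and Prupe.2G232300. Both passed the filter through the 4 libraries at 3 days alone, which favours a call. Their choice followed the same rule, so the same limits hold for their p-values and alternative fits. Prupe.5G090700 stood at 0 FPKM in every one of the 4 control libraries of 7 days and had 279, 546, 356 and 229 FPKM at 3 days (limma adjusted p = 1.2e-08, called in all 21 alternative fits). An estimated 2224 reads carried its values at 3 days. It was also listed at 0 in all 4 HC libraries at 7 days, with 35.7 to 97.4 FPKM in HC buds at 3 days (limma adjusted p = 6.3e-07). Thus none of the 8 libraries taken at 7 days listed a transcript that all 8 taken at 3 days held.

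Prupe.2G232300 was listed at 0 in all 4 libraries at 7 days, and had 328, 7394, 180.5 and 932 FPKM at 3 days (limma adjusted p = 0.0022). Its effective length, estimated at 0.00202 kb, was so short that these levels stood for an estimated 2.38, 20.8, 3.99 and 24.8 reads. It was not called by voom on estimated reads (limma adjusted p = 0.24, range over 21 alternatives 5.2e-05 to 0.24), so the fall rests on 51.9 reads in all. Such short genes were rare among the calls and among all tested genes. Among genes with an estimate, an effective length under 0.1 kb was found for 1 of 596 that rose and 1 of 698 that fell. Over all tested genes it was 55 of the 13983 with estimated reads.

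The other pole is formed by genes called neither higher nor lower, which alone does not show that they were steady. Prupe.3G045500 had the narrowest range over the 8 libraries among the 1062 genes not called with a mean of 100 FPKM or more. It had 446, 392, 401 and 409 FPKM at 7 days, and 441, 469.9, 388 and 475 FPKM at 3 days, with the days overlapping. The log2 fold change was -0.10 (95% interval -0.39 to 0.19, limma adjusted p = 0.71). Next came Prupe.7G268100, with 620.2, 675, 622 and 645 FPKM at 7 days and 581, 523, 660.4 and 574 FPKM at 3 days (0.14, 95% interval -0.16 to 0.43, limma adjusted p = 0.62). For 880 genes (6.28% of those tested) the 95% interval lay within 1 either way on the log2 scale, that is within a doubling or halving, and 24 of these were called as changed, by less than that. This group held 41.2% of the genes at 300 FPKM or more and 0 of the 5678 below 10 FPKM. Most genes that missed the test are therefore not shown to be steady. All these intervals use the spread shared by the 16 libraries, and the HC libraries varied less than the control libraries. They can thus be too narrow for control buds, and the count of 880 too high.

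**Figure D4:**
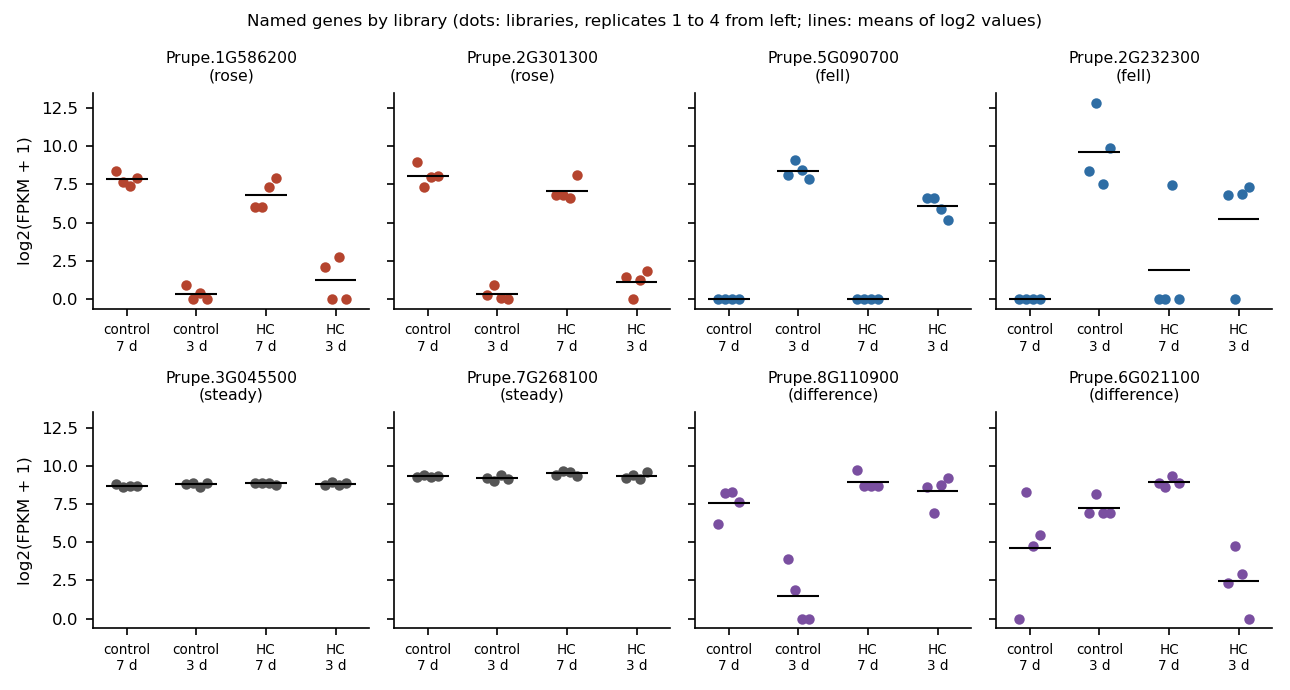
Levels of the named genes, as log2(FPKM + 1) (y axis), in control and HC buds at 7 and 3 days (x axis). Dots are libraries, with replicates 1 to 4 from left, and lines are the means of the 4 log2 values. The upper row shows genes that rose and fell in control buds, and the lower row shows steady genes and the 2 whose change differed most between control and HC buds.

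A few genes were seen on 1 day only in control buds. Genes listed at 0 in all 4 libraries at 3 days with 1 FPKM or more in all 4 at 7 days numbered 10, and their mean levels at 7 days were 3.45 to 25.1 FPKM. Genes listed at 0 in all 4 libraries at 7 days with 1 FPKM or more in all 4 at 3 days numbered 13, with mean levels of 4.64 to 2209 FPKM at 3 days, the highest being Prupe.2G232300. All 23 were called, which the filter favours since they passed it through 1 day alone. Summed over the 4 libraries where they were seen, 8 of the 10 and 12 of the 13 had 100 or more estimated reads. In HC buds, 9 of the 10 were above 0 in at least 1 library at 3 days and 10 of the 13 in at least 1 library at 7 days. These counts have no share over all tested genes beside them. Median depth at 3 days was 11.0 M estimated reads in HC and 7.24 M in control buds. At 7 days it was 3.48 M and 2.82 M, and the part of depth in these counts was not tested.

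The same 4 days were then set beside each other in untreated and HC-treated trees, which share no library. In HC buds, 951 of the 14003 genes changed (6.79%), 551 higher (3.93%) and 400 lower (2.86%) at 7 days. Genes higher on both counts numbered 222, which is 37.2% of the control list and 40.3% of the HC list. Genes lower on both counts numbered 224, 32.0% of the control list and 56.0% of the HC list. Opposite calls were made for 8 genes, of which 3 were higher in control and lower in HC buds and 5 lower in control and higher in HC buds. The 597 genes that rose in control buds had a median log2 fold change of 2.38 in control and 1.23 in HC buds, and the 700 that fell had -1.80 in control and -0.83 in HC buds. Over all tested genes the medians were -0.03 in control and 0.07 in HC buds. The genes were picked by their control changes and not by their HC changes, though the HC libraries shared in the estimate of the spread. The 2 medians are therefore not a test of a smaller change in HC buds.

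Of the genes that rose in control buds, 58.1% had all 4 HC libraries at 7 days above all 4 at 3 days, against 11.2% of all tested genes. Of the genes that fell, 50.3% had all HC libraries at 7 days below those at 3 days, against 8.61%. The HC libraries shared in the spread by which these genes were called, and the called genes had higher levels than most tested genes. The part of either in these shares was not tested. Across the 14003 genes, which are not independent replicates and share libraries and depth within each contrast, the log2 fold changes in control and HC buds had a Pearson correlation of 0.42 and a Spearman correlation of 0.37. The Pearson correlation was 0.56 over the 5641 genes with a mean of 20 FPKM or more. The median depth in HC buds was 3.48 M estimated reads at 7 days (2.585 to 16.59 M) and 11.0 M at 3 days (5.855 to 21.91 M). Whether depth differed between the days in HC buds was not tested, nor was its part in the shared changes.

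**Figure D5:**
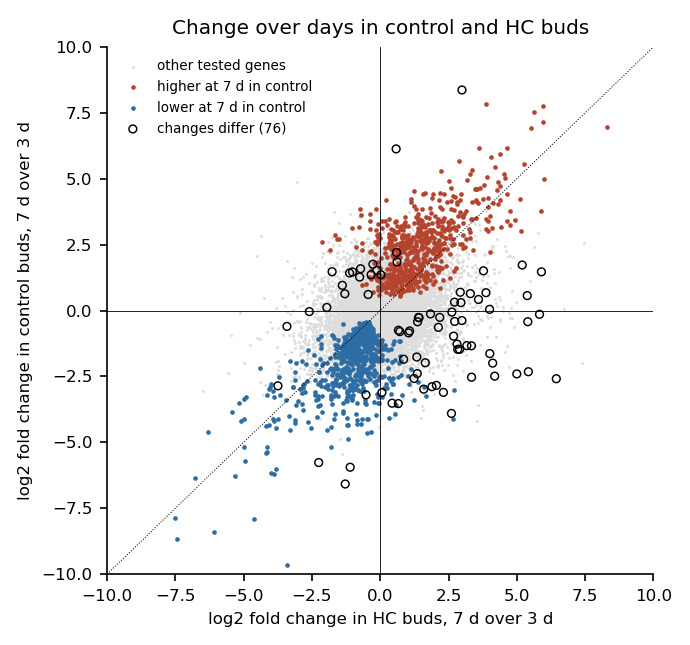
Log2 fold change of 7 over 3 days in control buds (y axis) against that in HC buds (x axis) for the 14003 tested genes. Red and blue dots are genes higher and lower at 7 days in control buds, open circles the 76 genes whose change differed between control and HC buds, and the dotted line marks equal change. Most red and blue dots lie in the quadrants of equal sign, and 33 of the open circles are genes that rose in HC buds with no call in control buds.

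Where the change itself was tested for a difference between untreated and HC buds, 76 genes passed (0.543%; limma, adjusted p under 0.05). The change was higher in control than in HC buds for 20 (0.143%) and lower for 56 (0.4%). With median-of-ratios scaling the split of 74 genes was 30 and 44. The most frequent pattern, in 33 of the 76, was a rise in HC buds with no call in control buds. A fall in control buds with no call in HC buds was found in 15, and a rise in control buds with no call in HC buds in 11. Of the 8 genes with opposite calls, all 8 were among the 76. The count was 47 without replicate 4 at 7 days, replicate 3 at 3 days or replicate 4 at 3 days, and from 36 to 227 over the other settings.

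The 2 ends of this difference, chosen after their values were seen, were Prupe.8G110900 and Prupe.6G021100. Prupe.8G110900 had 72.8, 291, 313 and 199 FPKM in control buds at 7 days and 14.1, 2.69, 0 and 0 FPKM at 3 days, with no overlap (log2 fold change 6.13 ± 0.74, SE, limma adjusted p = 3.5e-05). In HC buds it was already high at 3 days, with 851, 414, 409 and 405 FPKM at 7 days and 381, 117, 434 and 597 FPKM at 3 days (0.58 ± 0.74, limma adjusted p = 0.77). The difference of 5.55 ± 1.04 (limma adjusted p = 0.024, range over 13 alternatives 0.0015 to 0.11) was not called without control replicate 3 at 7 days (0.054), with a pseudocount of 0.1 (0.11) or with a replicate block inside each treatment (0.081). Its size under these settings was 5.31, 7.32 and 5.55.

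Prupe.6G021100 had 0, 306, 25.4 and 43.55 FPKM in control buds at 7 days and 119.8, 279, 117 and 116.9 FPKM at 3 days. These overlapped through replicate 2 at 7 days, and the change of -2.59 ± 1.27 did not pass (limma adjusted p = 0.23). In HC buds it rose, with 473, 388, 653 and 476 FPKM at 7 days against 4.05, 25.3, 6.47 and 0 FPKM at 3 days (6.45 ± 1.27, limma adjusted p = 0.0050). The difference of -9.03 ± 1.80 (limma adjusted p = 0.038, range over 13 alternatives 0.0037 to 0.15) was called in 6 of the 13. It was not called with a pseudocount of 0.1 (0.15), or without replicate 3 (0.072) or 4 (0.058) at 7 days or any 1 control library at 3 days (0.0599 to 0.066). Its size was -10.83 with that pseudocount and -9.32 to -8.73 without those libraries.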

How the data were processed

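Per the submitters' processing notes, the tools were Trimmomatic, RSEM 1.2.31 and STAR 2.5.2a. Their roles and order, and the build of the genome, are not given in the sources used here. A matrix deposited by the authors holds FPKM as far as its values show. The 2 deposited tables give a signal value per gene and treatment, used here to estimate reads, and a log2 fold change and p-value of HC against control, which the authors made by a method not given and which were not used.

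limma 3.58.1 (R 4.3.3, statmod 1.5.0) was fitted to log2(FPKM + 1) of 16 libraries in 4 groups, with trend and robust moderation, and Benjamini-Hochberg adjustment over 14003 genes. Folds understate changes of low genes. The members and lists were chosen with earlier results of these data known. The fit was tested on simulated data that gave all groups the same spread per gene. That test therefore cannot show how the fit behaves with the unequal spread of control and HC libraries.

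The ratio of signal to FPKM gave an effective length for 20556 genes. Multiplied by it, between 86.0% and 95.7% of low values per library lay within 0.2 of a whole number of steps (40% by chance, with steps chosen to fit), and 1 step was taken as 1 read. FPKM carries no reads directly, so depths and reads are estimates.

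Groups and replicates came from the labels. Named genes are the 2 that rose and 2 that fell with the widest gap between days among those called in the 16-library and 8-library fits, and the 2 steadiest at 100 FPKM or more. The pair for the difference was chosen after its values were seen. The p-values treat libraries as independent. Exact permutation tests used scipy 1.17.1. Alternatives covered pseudocount, filter, scaling, weights, voom, each control library left out, both libraries that stand apart, replicate block and threshold.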

Additional observations from a re-analysis of the deposited data

Results flagged for a closer look

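A single library stood far from the other 3 of its group in 8 of 46 groups of 4 values checked. For independent, normally distributed values, chance marks about 1 in 20. Many of these groups are FPKM of genes picked for wide gaps or differences, so the count is not read as an excess. Replicate 2 of control buds at 3 days accounted for 3 of the 8. It had 7394 FPKM of Prupe.2G232300, 279 FPKM of Prupe.6G021100, and 30.1% of its summed FPKM in the genes lower at 7 days. Without it, 1317 genes were called between the days. Prupe.2G232300 was at 176.5 FPKM in HC replicate 3 at 7 days, from an estimated 0.91 reads, and at 0 in the other 3. Prupe.6G021100 was at 306 FPKM in control replicate 2 at 7 days. In HC buds at 7 days, replicate 4 was high for Prupe.2G301300 (276 FPKM) and low for Prupe.3G045500 (427 FPKM), and replicate 1 was high for Prupe.8G110900 (851 FPKM).

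The change over the days differed between control and HC buds for 76 genes by a test of the difference. Control minus HC change was 5.55 for Prupe.8G110900 and -9.03 for Prupe.6G021100 on the log2 scale.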

How the results depend on the processing

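The count of 1297 genes was 578 (294 higher, 284 lower) with only the 8 control libraries, 475 (248 higher, 227 lower) with those and a replicate block, and 597 (297 higher, 300 lower) at an adjusted p under 0.01. Leaving out 1 control library gave 1036 to 1317 genes, 457 to 589 higher and 524 to 753 lower. Under the other settings it was 1036 to 1525. The median log2 fold change was -0.27 without replicate 2 at 3 days and 0.10 without replicate 1 at 7 days. The fits of 8 libraries have fewer samples and leave out the HC libraries, whose median SDs (0.63 and 0.56) were below those of control buds (0.90 and 1.07). The part of each was not tested, nor was the cause of the other shifts. Same-numbered libraries of the days had correlations of deviations from -0.03 to 0.03, and differently numbered ones from -0.04 to 0.04. At 7 days, 2 of the 4 libraries correlated best with their own number. Correlations this low cannot tell whether 1 number stands for 1 tree on both days. With a replicate block inside each treatment in 16 libraries, 1091 genes were called.

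The 76 genes whose change differed between control and HC buds were 36 with a pseudocount of 0.1, 124 with a pseudocount of 5, 125 with quantile normalization, 227 with library quality weights, 217 under voom on estimated reads, 46 with the block, and 47 to 95 without 1 control library. Quantile normalization, voom, the other filters and the fit without both libraries that stood apart were added for this count after seeing the data, as was the comparison at equal reads.

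Differences in library measures (7 minus 3 days) without 1 library, where the exact permutation test cannot go below p = 0.057 and so cannot pass, were -1814.5 to 879.9 genes above 0, -0.60 to 0.73 percentage points in the 100 highest genes, and -5.45 to -1.49 M reads. Genes at 1 FPKM or more differed by 90.5 and those expected at equal reads by 136. No 95% interval lay within 1 on the log2 scale for genes under 10 FPKM, and the part of depth in this was not tested.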

Other observations

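By the numbering of the identifiers, which gives the pseudomolecule and an order along it, the genes that changed were spread over all 8 pseudomolecules. The share called lay between 8.54% (pseudomolecule 7) and 10.2% (pseudomolecule 8), near the 9.26% of all tested genes.

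Neighbours in this numbering were called together more often than the share of calls among all tested genes. Of the genes called higher at 7 days, 7.37% were followed by another called higher, against 4.27% of all tested genes. Of those called lower, 8.29% were followed by another called lower, against 5.002%. The longest runs held 4 genes higher and 5 lower, and runs of 3 or more held 14 and 18 genes. Reads shared between neighbouring near-identical copies were not assessed, and no test was made of these shares.

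Genes just inside the filter, with 1 FPKM or more in exactly 4 of the 8 libraries, numbered 1271 with a median of their mean levels of 2.81 FPKM. Those just outside, with exactly 3 libraries, numbered 1117 with 1.71 FPKM. The genes called higher and lower had median effective lengths of 1.13 kb each, against 1.48 kb over all tested genes.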
